A study of Rattus norvegicus with 24 samples.

Results

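The Slc25 family is the set of mitochondrial solute carriers, and 39 of its genes were followed here in 3 tissues of fed and fasted rats. They are all genes whose symbol starts with Slc25a and that the array's annotation names alone on at least 1 probe set, except Slc25a20, which was left out by the choice of members. The 39 genes stand among 14217 named genes on the array, and each was read through its brightest probe set by mean log2 signal over all arrays. The rats were male Wistar, an outbred laboratory strain, 7 weeks old at the start and 8 weeks old per the sample labels, and all of them had been limited to food between hour 10 and hour 16 of the day for 7 days. On day 8 the fed group ate again and the fasted group did not, which made a fast of 24 h, and both groups kept their water. Interscapular brown adipose tissue (BAT), the heat-producing fat between the shoulder blades, perirenal white adipose tissue (WAT), which stores lipid, and liver were taken at hour 16, with 4 fed samples (numbered 1, 2, 4 and 5) and 4 fasted samples (numbered 6, 8, 9 and 10) per tissue. Each of the 24 samples was hybridised to 1 array, and array numbers below are these sample numbers.

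Carriers of this family sit in the inner mitochondrial membrane, apart from a few in the outer membrane or in peroxisomes, and each moves a small set of metabolites across a membrane that is otherwise closed to them. They share a repeated fold and mostly work as exchangers, letting one metabolite in for another out. The citrate carrier feeds cytosolic fatty acid synthesis, the aspartate-glutamate carriers serve the shuttle that brings reducing equivalents into mitochondria and, in liver, the urea cycle, and the adenine nucleotide and phosphate carriers supply and export the substrates of ATP synthesis. The uncoupling protein of brown fat, Ucp1, belongs to the same protein family but carries another gene name and is no member here.

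The values are array signals scaled to a common trimmed mean (128 arbitrary units), and changes are differences of log2(signal + 1.9). Replicate arrays of a group correlated at r = 0.924 to 0.96 across genes. Tissue identity followed the labels: Ucp1 read 11469.5 ± 1324 (SD, n = 4) in fed BAT and 11.5 ± 9.90 in fed WAT, and 8 hepatocyte markers averaged 12.66 in fed liver against 4.15 to 4.41 (log2) in the fed fats. Skeletal muscle markers did not follow the labels, and they bear on the BAT results below. The mean log2 signal of the 15 muscle markers on the array was 6.81, 5.38, 4.53 and 11.25 on fed BAT arrays 1, 2, 4 and 5, and 12.14, 12.15, 11.78 and 11.61 on fasted arrays 6, 8, 9 and 10. In WAT it was 3.65 to 4.05 on the fed arrays and 4.24, 10.69, 3.84 and 11.73 on the fasted arrays, and in liver 2.92 to 3.56. Of the 15, 14 rose in BAT, 93.3% beside 26.9% of all genes. The summed signal of the 15 markers was 5497 to 54420 on fed and 64740 to 81190 on fasted BAT arrays. In WAT 1 of the 12 tested rose (8.33% beside 18.2%), with sums of 2026 to 2222 on fed and 1811 to 63510 on fasted arrays. Macrophage markers also moved with fasting: 4 of 6 rose in BAT, 2 of 6 in WAT and 3 of 6 in liver. These shares were 66.7%, 33.3% and 50%, beside 26.9%, 18.2% and 18% of all genes called. The summed signal of the 6 macrophage markers ranged from 808.5 to 1104 on fed and from 1473 to 1892 on fasted BAT arrays. The ranges were 2168 to 2643 and 3309 to 4220 in WAT, and 2037 to 2621 and 2930 to 3938 in liver, so fed and fasted arrays did not overlap in any tissue. Whether either had a part in the changes below was not tested unless a fit is named.

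Of the 39 carriers, 36 were bright enough to be tested in at least 1 tissue, and 19 of these changed with fasting in at least 1. Slc25a1, Slc25a10 and Slc25a44 fell in all 3 tissues. Another 4 changed in 2 tissues: Slc25a35 fell in both fats, Slc25a42 rose in WAT and liver, and Slc25a22 and Slc25a30 changed in opposite directions, down in 1 of the fats (WAT for Slc25a22, BAT for Slc25a30) and up in liver. In BAT 11 of 32 tested members changed (5 up, 6 down), a share of 34.4% beside 26.9% of all 10342 genes tested. In WAT 8 of 32 changed (1 up, 7 down), 25% beside 18.2% of all genes. In liver 10 of 35 changed (6 up, 4 down), 28.6% beside 18% of all genes. A call here is an adjusted p under 0.05 in limma's test with Benjamini-Hochberg adjustment over all genes tested. The median change over the tested members was -0.15 in BAT, -0.15 in WAT and 0.11 in liver (log2), beside 0.01, 0.03 and 0.03 over all genes. The tissues are whole, so fewer cells of a type and less RNA per cell cannot be told apart.

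**Figure D1:**
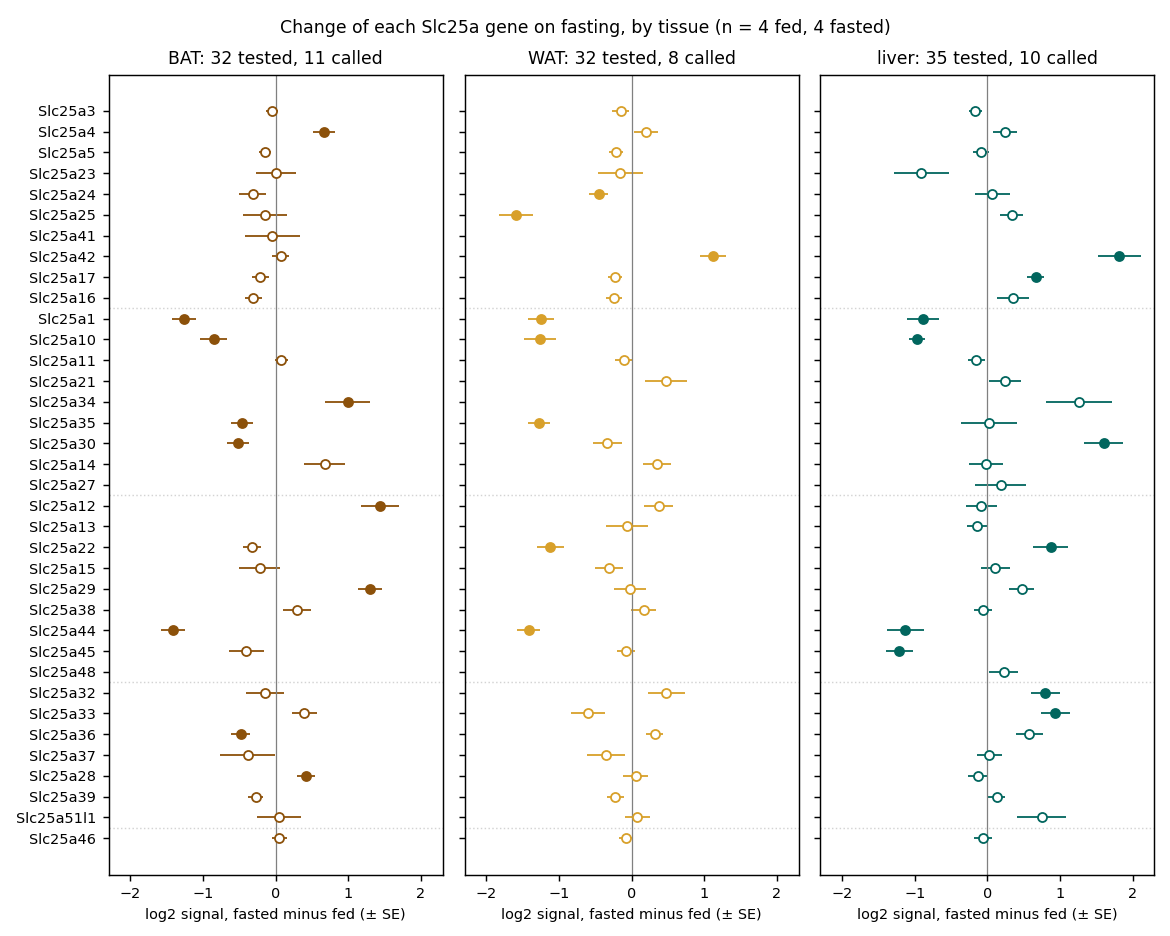
Change on fasting of the 36 Slc25a genes tested in at least 1 tissue (rows, grouped by what they carry) in BAT, WAT and liver. The x axis is fasted minus fed log2 signal with its SE (n = 4 and 4), and filled points are called at an adjusted p under 0.05; Slc25a1, Slc25a10 and Slc25a44 are filled and left of 0 in all 3 panels.

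By what they carry, the di- and tricarboxylate carriers with the uncoupling protein relatives gave 1 member up and 4 down of 7 tested in BAT, 3 down of 7 in WAT, and 1 up and 2 down of 9 in liver. The amino acid group gave 2 members up and 1 down of 7 tested in BAT, 2 down of 8 in WAT, and 1 up and 2 down of 9 in liver. Among the carriers of adenine nucleotides, phosphate and coenzyme A, 1 of 10 rose in BAT, 1 rose and 2 fell of 9 in WAT, and 2 of 9 rose in liver. The 7 carriers of cofactors, metals and nucleotides gave 1 rise and 1 fall in BAT, no call in WAT and 2 rises in liver. Of all genes 26.9% were called in BAT, 18.2% in WAT and 18% in liver. These groups are small, and none was tested as a set.

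Slc25a1, the citrate carrier, brings citrate out of mitochondria for fatty acid and sterol synthesis. In BAT the fed arrays read 4583, 6125, 6135 and 5849.9 and the fasted arrays 3108, 2297, 1747 and 2425. In WAT the fed arrays read 3329, 4725, 4408 and 5649 and the fasted arrays 1877, 1657, 1589 and 2477. Every fasted array lay below every fed array in both fats. In liver the fed arrays read 1485, 1248, 1698 and 1241 and the fasted arrays 1103, 969, 519 and 600.0, again without overlap. The log2 change was -1.26 ± 0.16 (SE) in BAT (adjusted p = 0.000401), -1.25 ± 0.18 in WAT (adjusted p = 0.00163) and -0.89 ± 0.22 in liver (adjusted p = 0.0193). The liver call was narrow: without array 4 its adjusted p was 0.0505, and without array 10 it was 0.0513. With muscle marker level added as a covariate the BAT fall stayed past the threshold, at an adjusted p of no more than 0.0397 over the alternatives.

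Slc25a10, the dicarboxylate carrier, exchanges malate and succinate for phosphate. Fed WAT arrays read 1630.0, 2780.1, 1925 and 2915, and fasted ones 902, 856, 757 and 1301. Fed BAT arrays read 817, 1262, 916 and 1245, and fasted ones 731, 449.9, 519 and 639.7. The groups did not overlap in either fat. In liver the fed arrays lay close together at 1278, 1254, 1302 and 1282, and the fasted arrays at 686, 742, 625 and 568, all below them. The log2 changes were -0.85 ± 0.18 in BAT (adjusted p = 0.00678), -1.26 ± 0.22 in WAT (adjusted p = 0.00393) and -0.97 ± 0.11 in liver (adjusted p = 0.00015). The BAT call was lost with the muscle covariate (log2 change -1.06, adjusted p = 0.101) and on the second scan day alone (-0.59, adjusted p = 0.107). A second, dimmer probe set of the gene changed by -0.51, -1.26 and -0.28 in BAT, WAT and liver.

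Slc25a44 brings branched-chain amino acids into mitochondria, a role described in brown fat of mice. Its fed BAT arrays read 420.0, 389, 446 and 296, and its fasted BAT arrays 120.1, 179.8, 129 and 148. Its fed WAT arrays read 218, 198, 268 and 233, and its fasted WAT arrays 68.3, 106, 80.7 and 85.6. In both fats all fasted arrays lay below all fed ones. Liver read 276, 255, 322 and 200.05 when fed and 142, 186, 94.2 and 77.1 when fasted, also without overlap. The log2 changes were -1.42 ± 0.17 in BAT (adjusted p = 0.000251), -1.42 ± 0.16 in WAT (adjusted p = 0.000372) and -1.13 ± 0.25 in liver (adjusted p = 0.011). The gene's other probe set changed by -1.41 and -1.12 in the fats and by -0.30 in liver, and the liver call was lost with the mean of both (-0.71, adjusted p = 0.0623). With the muscle covariate the BAT change was -1.02 (adjusted p = 0.0558).

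**Figure D2:**
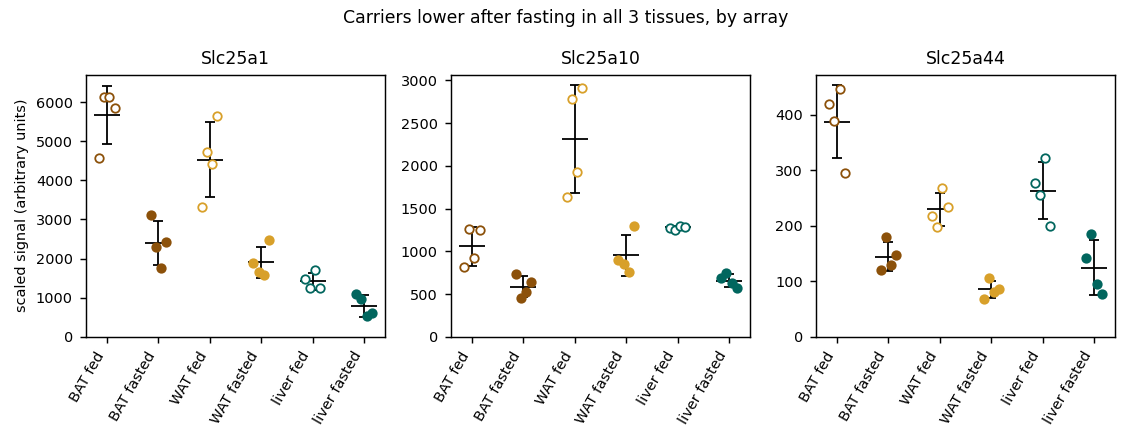
Scaled signal (arbitrary units, axis from 0) of Slc25a1, Slc25a10 and Slc25a44 on each of the 24 arrays; open points are fed, filled points fasted, and bars give the mean and SD (n = 4). In each tissue all 4 fasted points lie below all 4 fed points for these genes.

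Because these 3 carriers moved together in every tissue, the 250 bases before each gene's start are shown, 5′ to 3′ on the gene's own strand, from RefSeq (rat, GRCr8). Capitals mark matches to a CCAAT box (CCAAT) or a GC box (GGGCGG) on either strand.
Slc25a1, chr11:96559804-96560053, plus strand: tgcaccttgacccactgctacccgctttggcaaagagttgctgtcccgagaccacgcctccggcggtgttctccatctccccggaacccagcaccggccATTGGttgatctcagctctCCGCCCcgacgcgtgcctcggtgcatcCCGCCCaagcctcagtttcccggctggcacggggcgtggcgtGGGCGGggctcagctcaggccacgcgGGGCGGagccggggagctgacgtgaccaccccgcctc
Slc25a10, chr10:106264146-106264395, plus strand: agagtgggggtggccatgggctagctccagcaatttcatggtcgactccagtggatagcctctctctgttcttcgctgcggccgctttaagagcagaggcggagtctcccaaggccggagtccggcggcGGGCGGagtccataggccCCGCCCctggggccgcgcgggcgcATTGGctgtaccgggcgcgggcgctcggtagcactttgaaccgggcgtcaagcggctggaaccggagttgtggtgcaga
Slc25a44, chr2:176180839-176181088, minus strand: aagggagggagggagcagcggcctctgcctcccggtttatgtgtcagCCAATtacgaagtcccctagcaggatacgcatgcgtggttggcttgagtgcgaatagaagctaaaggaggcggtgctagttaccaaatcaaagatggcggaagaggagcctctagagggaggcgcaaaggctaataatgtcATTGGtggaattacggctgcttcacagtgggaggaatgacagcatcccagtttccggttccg
Each of the 3 windows held a CCAAT box, which 34.02% of all 33469 promoter windows of this length hold. GC boxes were in those of Slc25a1 and Slc25a10 and not in that of Slc25a44, and 30.47% of all windows hold one. Both boxes were common in the family. Of the 34 windows of Slc25a genes, members without a fasting call included, 19 held a CCAAT box and 20 a GC box. No match to the sterol regulatory element TCACNCCAC, the FoxO core TGTTTAC, the estrogen-related receptor element TCAAGGTCA or the NRF1 core GCGCATGCG was in the window of any of the 33 members that the promoter table holds, on either strand. Over all windows the shares were 0.97% for the sterol element, 3.21% for the FoxO core, 0.39% for the receptor element and 1.35% for the NRF1 core. The motifs were picked as well-known ones with results in view, and a match is a run of letters, not a bound site.

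Partner genes of citrate export and fatty acid synthesis were measured on the same arrays, among them enzymes that act in mitochondria before the export. Of 8 such genes tested in each tissue, 2 fell in BAT, 3 fell and 2 rose in WAT, and 4 fell and 1 rose in liver. The shares called were 25%, 62.5% and 62.5%, beside 26.9%, 18.2% and 18% of all genes. Acly, which splits citrate to acetyl-CoA in the cytosol, changed by -0.47 ± 0.10 in BAT, -0.59 ± 0.09 in WAT and -2.41 ± 0.16 in liver (log2, SE). Me1, the cytosolic malic enzyme that makes NADPH, changed by -0.68 ± 0.14, -0.83 ± 0.11 and -1.67 ± 0.23 in the same order, and both genes were called in all 3 tissues. Fasn, the fatty acid synthase, changed by -3.67 ± 0.20 in liver (adjusted p = 1.44e-06), -0.10 ± 0.08 in BAT (adjusted p = 0.365) and -0.19 ± 0.13 in WAT (adjusted p = 0.358). Pc, the pyruvate carboxylase of gluconeogenesis, rose in liver by 0.75 ± 0.19.

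In fasted liver 6 carriers rose and Slc25a45 fell beside the 3 described above. Slc25a42, which takes coenzyme A into mitochondria in exchange for adenine nucleotides, rose most on the log2 scale. Its liver arrays read 235, 119.7, 261 and 118 when fed and 745, 882, 421 and 503 when fasted. All fasted arrays were above all fed ones, and the change was 1.82 ± 0.30 (adjusted p = 0.00216). WAT read 73.8, 66, 64.5 and 77.6 when fed and 124, 132, 204 and 175 when fasted, without overlap and at lower signal. The WAT change was 1.12 ± 0.17 (adjusted p = 0.00235), and on the second scan day alone its adjusted p was 0.0834. In BAT the same probe set read 746, 567, 566 and 552 when fed and 644, 651, 638 and 595 when fasted, with overlapping groups and a change of 0.07 ± 0.11 (adjusted p = 0.711).

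Slc25a30, a relative of the uncoupling proteins known as kidney mitochondrial carrier 1, read 922, 563, 445 and 693 in fed liver and 1154, 1867, 2457 and 2597 in fasted liver. The groups did not overlap, array 6 was the lowest of the fasted ones, and the change was 1.60 ± 0.27 (adjusted p = 0.00226). A second probe set of the gene changed by 1.77 in liver. In BAT it read 349, 285, 313 and 416 when fed and 233, 295, 212 and 209 when fasted. These groups overlapped, since array 8 lay above fed array 2, and the fall of -0.52 ± 0.15 (adjusted p = 0.0295) was lost under 11 of 20 alternatives.

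Slc25a22, the main mitochondrial glutamate carrier, read 809, 662, 905 and 492 in fed liver and 1587, 1837, 954 and 967 in fasted liver. Its lowest fasted array was just above its highest fed array, and the rise of 0.87 ± 0.24 (adjusted p = 0.0285) was lost without array 2, 5, 6 or 8 and with median centring of the arrays (0.81, adjusted p = 0.0537). In WAT the direction was opposite, with 669, 656, 665 and 895 on fed arrays and 293, 306, 487 and 267 on fasted arrays. The WAT groups were apart and the fall of -1.12 ± 0.19 (adjusted p = 0.00371) was called under all 20 alternatives. BAT read 593 ± 68.9 (SD, n = 4) when fed and 473 ± 53.6 when fasted, a change of -0.32 ± 0.12 (adjusted p = 0.0763).

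Slc25a17, a peroxisomal member that carries coenzyme A and flavin and nicotinamide cofactors, read 233, 262, 268 and 274 in fed liver and 427, 378, 435 and 406 in fasted liver. The groups were apart, with a rise of 0.66 ± 0.11 (adjusted p = 0.00241). Slc25a33, a pyrimidine nucleotide carrier, read 137, 95.4, 103 and 118 in fed liver and 297, 229, 211 and 153 in fasted liver. Its rise was 0.94 ± 0.20 (adjusted p = 0.00829), also without overlap. Slc25a32, which carries folate and is linked to flavin cofactors, read 60.4, 47.7, 39.4 and 35.6 when fed and 71, 99.2, 74.1 and 76.5 when fasted. It rose by 0.80 ± 0.20 (adjusted p = 0.0184), but its other, dimmer probe set changed by -0.26, and with the mean of both the change was 0.27 (adjusted p = 0.547). Slc25a45, a little-studied member placed by sequence with the amino acid carriers, read 101, 135, 138 and 106 in fed liver and 39, 59.2, 56.4 and 48.1 in fasted liver. All fasted arrays were below all fed ones, with a fall of -1.21 ± 0.18 (adjusted p = 0.00115). The calls of Slc25a17, Slc25a33, Slc25a42, Slc25a30 and Slc25a45 in liver held under all 19 alternatives.

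In WAT the largest fall among the members was that of Slc25a25, a calcium-regulated carrier that exchanges ATP-magnesium for phosphate. Its WAT arrays read 194, 155, 234 and 205 when fed and 69.8, 75.5, 80.2 and 37.9 when fasted. The lowest fed array was above the highest fasted array, and the change was -1.59 ± 0.23 (adjusted p = 0.00173). Slc25a35, an orphan related to the oxaloacetate carrier of yeast, read 308, 437, 285 and 409 in fed WAT and 146, 148, 137 and 154 in fasted WAT. The fasted arrays were nearly level and all below the fed ones, a change of -1.27 ± 0.15 (adjusted p = 0.000535). Slc25a24, another calcium-regulated ATP-magnesium carrier, read 456, 399.8, 489 and 383 in fed WAT and 309, 369, 275 and 308 in fasted WAT. Its fall of -0.45 ± 0.13 (adjusted p = 0.0343) was lost under 11 of 20 alternatives, although the groups did not overlap. Leaving out fasted arrays 8 and 10, which carried muscle marker signal, kept 7 of the 8 WAT calls, all but that of Slc25a24 (-0.56, adjusted p = 0.0551). The share of all genes that kept a WAT call without these arrays was not counted. The calls of Slc25a1, Slc25a10, Slc25a22, Slc25a25 and Slc25a35 in WAT held under all 20 alternatives, and that of Slc25a44 was lost only on the second scan day alone (adjusted p = 0.0525).

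Slc25a25 and Slc25a33 were the only members of the 33 with a promoter sequence whose window held a cyclic AMP response element (TGACGTCA), which 1.59% of all windows hold. Both are shown because the element stands before 1 gene that fell in WAT and 1 that rose in liver. Capitals also mark CCAAT and GC boxes and, for Slc25a33, an E-box (CACGTG), which 5.59% of all windows hold.
Slc25a25, chr3:36116582-36116831, minus strand: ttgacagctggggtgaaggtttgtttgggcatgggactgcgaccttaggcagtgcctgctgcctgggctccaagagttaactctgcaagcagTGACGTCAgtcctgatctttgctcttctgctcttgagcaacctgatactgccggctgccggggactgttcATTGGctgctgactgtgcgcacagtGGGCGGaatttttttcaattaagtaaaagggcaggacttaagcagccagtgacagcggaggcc
Slc25a33, chr5:165502974-165503223, minus strand: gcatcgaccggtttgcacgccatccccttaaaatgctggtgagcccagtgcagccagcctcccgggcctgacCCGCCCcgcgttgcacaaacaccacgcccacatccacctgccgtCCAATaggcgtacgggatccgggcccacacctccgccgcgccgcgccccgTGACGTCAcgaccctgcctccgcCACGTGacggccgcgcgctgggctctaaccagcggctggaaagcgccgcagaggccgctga
The element starts at base 93 of the Slc25a25 window and at base 167 of the Slc25a33 window. Promoter entries for Slc25a30, Slc25a32, Slc25a36, Slc25a37, Slc25a46 and Slc25a51l1 were not used here.

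**Figure D3:**
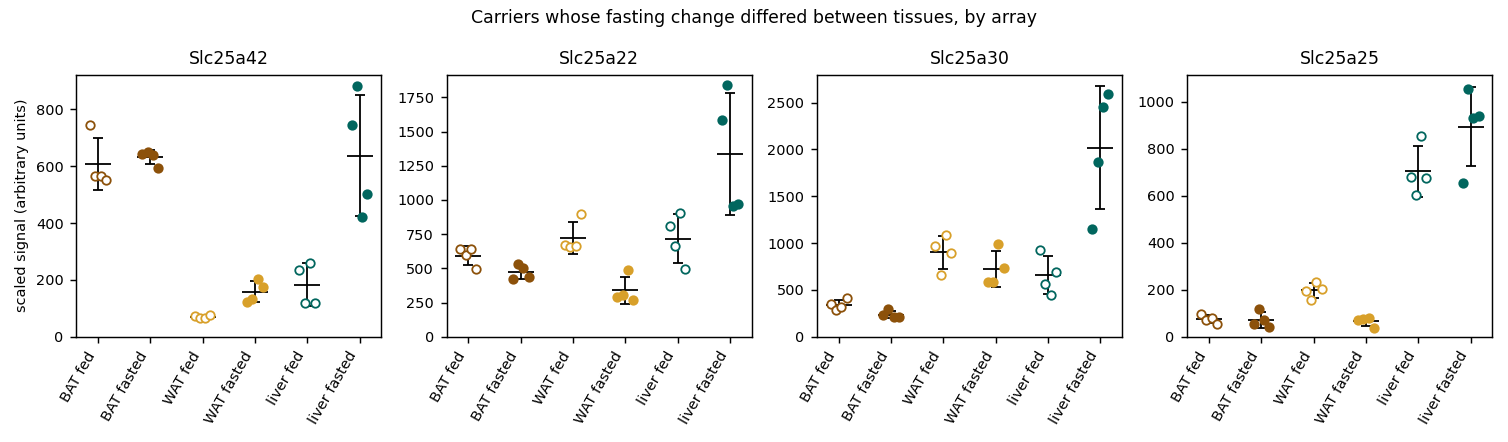
Scaled signal (arbitrary units, axis from 0) of Slc25a42, Slc25a22, Slc25a30 and Slc25a25 on each of the 24 arrays; open points are fed, filled points fasted, and bars give the mean and SD (n = 4). Slc25a22 falls in WAT and rises in liver, and Slc25a25 falls in WAT only.

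In BAT 5 carriers rose: Slc25a12, Slc25a29, Slc25a34, Slc25a4 and Slc25a28. Slc25a12, the aspartate-glutamate carrier typical of muscle and brain, read 53.6, 28.7, 46.1 and 77.4 when fed and 150.2, 155, 135 and 106 when fasted. The groups were apart and the change was 1.44 ± 0.26 (adjusted p = 0.00281). Fed array 5, whose muscle marker level was close to that of the fasted arrays, was the highest of the fed ones. Slc25a4, the adenine nucleotide translocase of heart and skeletal muscle, read 2907, 2235, 2903 and 3399.7 in fed BAT and 5146, 5472, 3935 and 3667 in fasted BAT. Its groups were also apart, with array 5 again the highest fed one, and the change was 0.67 ± 0.16 (adjusted p = 0.0104). In a fit with muscle level added the change of Slc25a12 was 0.66 (adjusted p = 0.367) and that of Slc25a4 was 0.34 (adjusted p = 0.534).

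Slc25a29, a carrier of basic amino acids, read 51.4, 41.9, 50.1 and 37.9 in fed BAT and 109, 124, 95.2 and 131 in fasted BAT. Array 5 was the lowest of the fed arrays, every fasted array lay above every fed one, and the change was 1.30 ± 0.17 (adjusted p = 0.000397). Its call held under all 20 alternatives, the muscle covariate among them. Array 5 is 1 array, and on the others feeding and muscle level cannot be told apart for any of these genes. Slc25a34, an orphan close to Slc25a35, read 27.6, 31.5, 21.3 and 30.8 in fed BAT and 90.6, 75.3, 45 and 32.9 in fasted BAT. Its rise of 0.99 ± 0.31 (adjusted p = 0.0365) was lost under 11 of 19 alternatives. Slc25a28, the iron carrier mitoferrin 2, read 316, 364, 428 and 331 in fed BAT and 438, 453, 524 and 507 in fasted BAT. It rose by 0.42 ± 0.12 (adjusted p = 0.0277), with the groups apart, and the call was lost under 9 of 20 alternatives.

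Beside Slc25a1, Slc25a10, Slc25a44 and Slc25a30, 2 carriers fell in BAT. Slc25a36, the other pyrimidine nucleotide carrier, read 777, 915, 829.5 and 939.7 when fed and 533, 529.5, 747 and 691 when fasted. All fasted arrays were below all fed ones, and the change was -0.48 ± 0.13 (adjusted p = 0.0226). Slc25a35 read 322, 422, 283 and 298 when fed and 266, 198, 242 and 246 when fasted, without overlap, and changed by -0.46 ± 0.15 (adjusted p = 0.0416). Both calls were lost under 9 of 20 alternatives. With the muscle covariate 2 of the 11 BAT calls were kept, those of Slc25a1 and Slc25a29, and over the whole array 318 of the 2782 genes called were called again in the same direction. The fed and fasted BAT groups differ in muscle level on 3 of 4 fed arrays, so feeding and muscle level are largely tied in this fit. Without fed array 5, 8 of the 11 calls were kept, those of Slc25a28, Slc25a30 and Slc25a36 were lost (adjusted p = 0.0646, 0.0717 and 0.052), and Slc25a22 and Slc25a39 were called in addition. Over the whole array 2359 of the 2782 genes called were called again in the same direction without array 5.

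**Figure D4:**
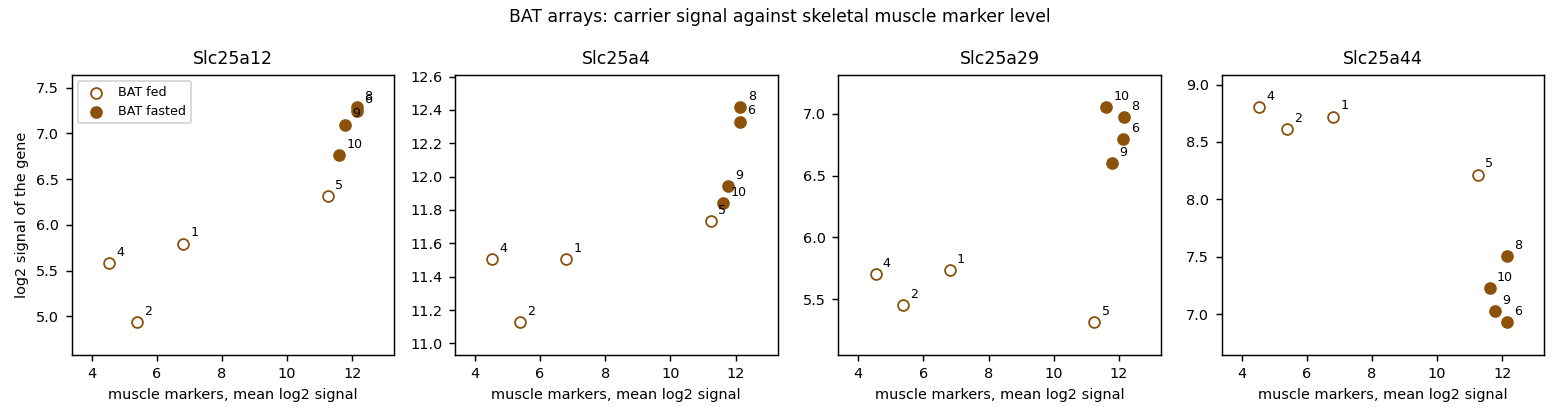
The 8 BAT arrays with the mean log2 signal of 15 skeletal muscle markers on the x axis and the log2 signal of Slc25a12, Slc25a4, Slc25a29 and Slc25a44 on the y axis; numbers are sample numbers, open points are fed and filled points fasted. Fed array 5 lies near the fasted arrays in muscle level, next to them for Slc25a4 and with the other fed arrays for Slc25a29.

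The arrays of each tissue were scanned on 2 main days, each with fed and fasted arrays, and the fasting change was also taken on each day alone (fasted WAT array 9, scanned on a day of its own, is in neither). All 29 member calls in the 3 tissues had the same sign on both days. For every call but that of Slc25a30 in BAT the fed and fasted arrays did not overlap, which fixes this sign in advance. The days also come from the arrays that gave the calls, so the shared sign is no separate support. For Slc25a1 the first and second days gave -1.54 and -0.99 in BAT, -1.06 and -1.12 in WAT, and -1.15 and -0.62 in liver. Slc25a44 gave -1.29 and -1.54 in BAT, -1.31 and -1.48 in WAT, and -1.39 and -0.87 in liver. Slc25a10 gave -1.12 and -0.59, -1.13 and -1.01, and -1.09 and -0.85 in the same order. In liver the days gave 1.94 and 1.70 for Slc25a42, 2.01 and 1.19 for Slc25a30, 0.75 and 1.00 for Slc25a22, 0.65 and 0.68 for Slc25a17, and -1.17 and -1.26 for Slc25a45. In WAT they gave -2.18 and -1.53 for Slc25a25 and -1.45 and -1.01 for Slc25a35. In BAT they gave 1.30 and 1.58 for Slc25a12 and 1.45 and 1.16 for Slc25a29, but 0.29 and 1.69 for Slc25a34.

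The difference of the fasting effect between tissues was tested directly over all 24 arrays. Between BAT and WAT 3 of 33 members differed, 9.09% beside 1.56% of all 10449 genes tested. Slc25a25 fell in WAT and had no call in BAT, where its arrays read 95.1, 70.4, 77.9 and 53.4 when fed and 52.5, 119, 70.9 and 40.7 when fasted (difference of log2 changes 1.44 ± 0.37, adjusted p = 0.0453). Slc25a29 rose in BAT and read 36.9 ± 9.45 in fed and 35.5 ± 3.29 in fasted WAT (SD, n = 4), a difference of 1.33 ± 0.26 (adjusted p = 0.00589). Slc25a36 fell in BAT and read 459 ± 46.4 in fed and 572 ± 53.3 in fasted WAT, a difference of -0.80 ± 0.20 (adjusted p = 0.0468). The calls of Slc25a25 and Slc25a36 are close to the threshold, and each was lost under 11 of 18 alternatives, whereas that of Slc25a29 held under all 18.

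Between BAT and liver 7 of 33 members differed, 21.2% beside 11.3% of all genes. Slc25a12 and Slc25a29 had the higher change in BAT, by 1.52 ± 0.34 (adjusted p = 0.00468) and 0.83 ± 0.26 (adjusted p = 0.0367). The call of Slc25a29 was lost under 9 of 18 alternatives, among them median centring and leaving out number 2, 5, 6, 8 or 10. Slc25a30, Slc25a42, Slc25a22, Slc25a36 and Slc25a17 had the higher change in liver, with differences (BAT minus liver) of -2.12, -1.75, -1.20, -1.06 and -0.87. With the muscle covariate 4 of these 7 differences were called, all but those of Slc25a12, Slc25a22 and Slc25a29. With scan day as a block all 7 were called, and so were 5 other members.

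Between WAT and liver 7 of 33 differed, 21.2% beside 8.08% of all genes. Slc25a22 showed the widest gap, -1.99 ± 0.30 (WAT minus liver, adjusted p = 0.000112), with a call of its own in each direction. Slc25a30, Slc25a25, Slc25a33, Slc25a35 and Slc25a17 also had the lower change in WAT, by -1.94, -1.93, -1.53, -1.29 and -0.89. The call of Slc25a35, which was dim in liver, was lost under 5 of 18 alternatives. Slc25a45 alone had the lower change in liver, with a difference of 1.14 ± 0.28 (adjusted p = 0.011). For Slc25a1, Slc25a10 and Slc25a44 no difference between tissues was called. Their differences ran from -0.38 (Slc25a1, BAT minus liver) to 0.41 (Slc25a10, BAT minus WAT), with SEs of 0.27 to 0.31. Gaps of this size could not be told from 0 with 4 arrays a group. Larger gaps also went uncalled, such as that of Slc25a12 for BAT minus WAT (1.06 ± 0.34, adjusted p = 0.135). The lack of a call therefore does not show that the changes were equal.

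Levels of most carriers differed between the tissues, over both feeding states, as did those of most genes. Between BAT and WAT 24 of 33 members differed (16 higher in BAT, 8 higher in WAT), 72.7% beside 58.8% of all genes. Between liver and WAT 24 of 33 differed (14 higher in liver, 10 lower), 72.7% beside 72.7% of all genes. Between liver and BAT 27 of 33 differed (10 higher in liver, 17 lower), 81.8% beside 76.4%. The shares in the liver comparisons were thus near those of all genes. The median difference over all genes was -0.24 for liver minus WAT and -0.26 for liver minus BAT under this scaling, against 0.16 and 0.07 with median centring, so small liver differences have no settled sign. With median centring the liver-to-WAT members split 19 higher to 7 lower and the liver-to-BAT members 13 to 13. Slc25a13 and Slc25a21 in BAT and Slc25a34 in WAT lay below the level at which a gene was tested within that tissue (a mean signal of about 17.9 in BAT and 18.05 in WAT). Their differences from that tissue are therefore given as bounds against that level. The adjusted p beside a bound belongs to the difference as measured, and the bound itself was not tested. Each scan day held 1 tissue, so tissue and scan day cannot be told apart.

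Slc25a13, the aspartate-glutamate carrier of liver, differed most. Liver read 2752, 2916, 2444 and 3122 when fed and 2134, 2249, 2753 and 3116 when fasted. BAT read 15.8, 28.1, 22.8 and 27.6 and 5.54, 13.2, 19.1 and 14.1, and WAT 37.1, 23.7, 22.2 and 29 and 30.6, 38.6, 23.4 and 16.8, fed before fasted. The lowest liver array was far above the highest fat array. On average liver was at least 134.5-fold higher than BAT (adjusted p = 1.16e-20 for the difference as measured). Liver was also higher than WAT, by 6.54 ± 0.19 on the log2 scale (adjusted p = 6.59e-20). Its paralog Slc25a12 had no call between any pair of tissues. Slc25a15, the ornithine carrier of the urea cycle, read 3296, 2067, 2366 and 1929 in fed and 3278, 2852, 2506 and 1789 in fasted liver. BAT read 482, 188, 482 and 286 and 357, 285, 212 and 312, and WAT 188, 144, 186 and 197 and 157, 99, 142 and 185. Liver was above both fats on every array (2.98 ± 0.18 over BAT, 3.93 ± 0.18 over WAT), and neither carrier had a fasting call in liver (adjusted p = 0.511 and 0.76).

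Slc25a4 ran the other way. Liver read 150.2, 86.9, 121 and 117 when fed and 136, 131, 143 and 144 when fasted, and WAT 1787, 2086, 2291 and 2138 and 2021, 2273, 2022 and 3431. Every liver array was far below every fat array, with a difference of -4.79 ± 0.12 from BAT and -4.10 ± 0.12 from WAT. The other translocase, Slc25a5, the form of dividing and liver cells, was spread far less: its liver level differed by -0.56 ± 0.07 from BAT (adjusted p = 3.05e-08) and by -0.04 ± 0.07 from WAT (adjusted p = 0.55). Slc25a35 read 19.6, 18.4, 12.3 and 8.47 in fed and 20.6, 6.94, 17.1 and 16 in fasted liver, all below its fat arrays (-4.13 ± 0.17 from BAT). Its mean log2 signal in liver, 4.00, was just above the level of 3.91 needed for a test there, so the size of this difference is uncertain. Slc25a36 read 38.2, 66.1, 54.7 and 60 in fed and 74.5, 84.4, 76.6 and 89.7 in fasted liver, and 512, 423, 483 and 418 and 622, 575, 593 and 498 in WAT. It was lower in liver by -3.43 against BAT and by -2.92 against WAT, with no overlap.

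Among the calcium-regulated ATP-magnesium carriers the tissues divided the genes. Slc25a24 was the WAT form: BAT read 100.1, 116, 65.7 and 94.6 and 73, 73.6, 66.3 and 83, and liver 38.3, 41.8, 40.4 and 24.3 and 26.8, 42.8, 39.9 and 42.1, all below the lowest WAT array. Its differences were -2.13 ± 0.13 for BAT minus WAT and -3.27 ± 0.13 for liver minus WAT. Slc25a25 was highest in liver, with 679, 605, 856 and 676 when fed and 656, 1057, 929 and 939 when fasted, 3.47 ± 0.18 above BAT and 2.79 ± 0.18 above WAT. Slc25a23, a further carrier of this kind, was also highest in liver (1.77 ± 0.26 above WAT, 0.79 ± 0.26 above BAT). Slc25a21, which exchanges oxoadipate and oxoglutarate in lysine breakdown, read 51.3, 79.9, 42.1 and 51.7 and 58.9, 69, 83.6 and 52.5 in liver, 24.3, 29.3, 16 and 45.5 and 34.9, 34.3, 45.5 and 38.9 in WAT, and 3.64, 3.05, 0.89 and 2.44 and 2.39, 2.05, 4.59 and 2.89 in BAT. BAT was below both other tissues on every array, with signals near the pseudocount. The bounds put WAT at least 1.72-fold and liver at least 3.11-fold higher than BAT. For the differences as measured the adjusted p was 7.24e-11 for WAT and 8.94e-14 for liver.

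**Figure D5:**
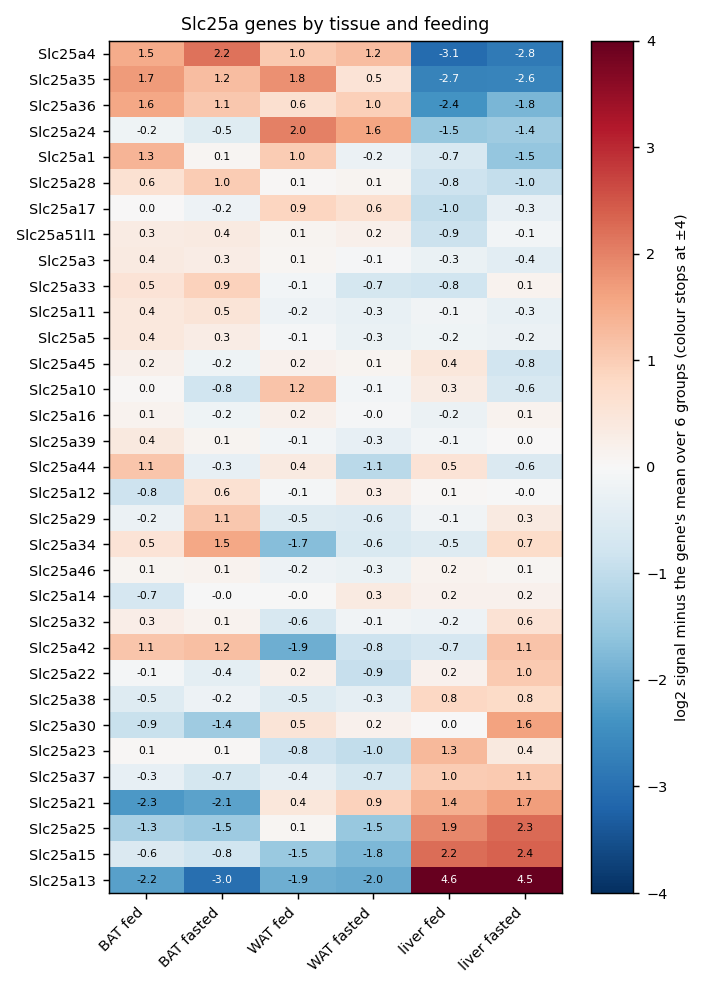
Mean log2 signal of the 33 Slc25a genes tested across tissues in each of the 6 groups (columns, n = 4 arrays each), as the difference from that gene's mean over the groups. Red is higher and blue lower; Slc25a13, Slc25a15 and Slc25a25 are red in liver at the bottom, and Slc25a4, Slc25a35 and Slc25a36 are blue there at the top.

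In BAT the genes of oxidative supply stood above WAT by smaller steps. The phosphate carrier Slc25a3 was higher by 0.32 ± 0.07, the translocases Slc25a4 and Slc25a5 by 0.69 ± 0.12 and 0.52 ± 0.07, and the oxoglutarate carrier Slc25a11 by 0.72 ± 0.08, all called. All 11 mitochondrial content genes on the array were higher in BAT than in WAT, 100% beside 58.8% of all genes. All 14 skeletal muscle markers tested were higher in BAT as well. Whether muscle had a part in the level of the content genes was not tested. Under quantile normalization the step of Slc25a3 was -0.11 (adjusted p = 0.0675), and in fed arrays only it was 0.27 (adjusted p = 0.0511). The calls of Slc25a4, Slc25a5 and Slc25a11 held under all 20 alternatives, but their sizes did not. Their lowest steps were 0.36, 0.10 and 0.63. Slc25a42 was higher in BAT by 2.54 ± 0.17, the widest step upwards among members measured in both fats. Slc25a34 was at least 2.08-fold higher in BAT (adjusted p = 1.86e-05 for the difference as measured). Slc25a10 was lower in BAT than in WAT by -0.90, and Slc25a30 by -1.48, while Slc25a1 did not differ between the fats beyond the threshold (0.33 ± 0.15, adjusted p = 0.0615). Slc25a1 was lower in liver than in WAT by -1.48.

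The 17 tested members with no fasting call include Slc25a3, Slc25a5, Slc25a11, Slc25a13 and Slc25a15. The phosphate carrier Slc25a3 changed by -0.05, -0.15 and -0.17 in BAT, WAT and liver, with SEs of 0.08 to 0.12. Slc25a39, the glutathione carrier, changed by -0.28, -0.22 and 0.13. Slc25a38, a glycine carrier needed for heme synthesis, and Slc25a37, the iron carrier mitoferrin 1, stood higher in liver than in BAT (1.16 ± 0.11 and 1.55 ± 0.20) and had no fasting call. Slc25a23 read 433, 365, 797 and 292 in fed and 409, 335, 147 and 143 in fasted liver, a spread too wide for a call (-0.91 ± 0.38, adjusted p = 0.121), and was called with scan day as a block (adjusted p = 0.00362). Slc25a14, Slc25a16, Slc25a21, Slc25a46 and Slc25a51l1 had no call in any tissue. With scan day as a block Slc25a16 was called in BAT and liver and Slc25a39 in BAT, and without array 4 Slc25a14 was called in BAT. Slc25a27, Slc25a41 and Slc25a48 passed the filter on dim genes in 1 tissue each and had no call there. Slc25a18, Slc25a31 and Slc25a53 passed it in none, with highest single readings of 19.5, 20.2 and 45.2.

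The import machinery that inserts carriers into the inner membrane was tested as 9 genes. All 9 fell in BAT, 6 fell in WAT and 2 in liver, with median changes of -0.83, -0.69 and -0.15, and the shares called were 100%, 66.7% and 22.2% beside 26.9%, 18.2% and 18% of all genes. Tomm40, the outer membrane pore, fell in all 3, by -1.10, -1.16 and -0.78. Timm9 and Timm10, small chaperones that escort carriers between the membranes, changed by -1.31 and -0.57 in BAT and by -1.17 and -1.40 in WAT. Of the 11 mitochondrial content genes, none was called in BAT, 4 fell in WAT (36.4%) and 2 rose in liver (18.2%), with medians of -0.09, -0.17 and -0.03. Beside them, 2 of 17 other inner membrane carriers and channels fell in BAT (11.8%) and 2 of 16 in WAT (12.5%). In liver 1 rose and 1 fell of 15 (13.3% called). The one that rose in liver was Mpc2, a subunit of the pyruvate carrier, which changed by 0.54 in liver, -0.46 in BAT and -0.55 in WAT. Letm1, a cation exchanger, fell in all 3. Of the 4 enzymes of the malate-aspartate shuttle, Mdh2 fell in WAT and liver and Got1 rose in liver (1.51). Of 6 urea cycle enzymes tested in liver, Asl rose (0.62), a share of 16.7% beside 18% of all genes.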

How the data were processed

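Total RNA (2 µg per sample) of 24 samples was labelled and hybridised to Affymetrix rat arrays, 1 array per sample. The deposited table holds array intensity values per probe set, made by the authors with MAS5 per the submitters' processing notes; the version, the scaling target and the background steps are not given in the sources used here. The deposited intensities were not at a common level between arrays (2% trimmed means of 92.8 to 205), so each array was scaled to the same trimmed mean (128), and log2(signal + 1.9) was taken; 1.9 is the 10th percentile of the scaled deposited signals. Fold changes of dim genes are understated on this log2 scale. Without the 57 control probe sets 31042 remained. The platform annotation named 20826 by 1 symbol, 436 by several and 9780 by none. Symbols were updated through gene identifiers for 20758 probe sets and through accessions for 2, and 66 were kept as given. This gave 14217 genes, each read by its brightest probe set. The 39 members had 57 probe sets, and 27 members had 1. Probe sets named for Slc25a51 carried several genes and were not used. The highest scaled signals were 10100 to 13900, and saturation was not tested.

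Tests used limma 3.58.1 in R 4.3.3 (lmFit, eBayes with trend), two-sided, with Benjamini-Hochberg adjustment over all genes above the 40th percentile of mean log2 signal, called at 0.05. Fasting effects were fitted within a tissue (8 arrays), and tissue differences and differences of fasting effects over all 24 arrays with 6 group means. All were tested on simulated data first. The number of arrays, 4 per group, limits the precision, and the 3 fasting comparisons within tissues share no arrays, whereas the differences between tissues share them in pairs. The labels do not say that a sample number marks the same rat in every tissue, and p-values measure the spread between these samples.

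Genes were named by this rule: values on every array for each member called in at least 1 tissue (at most 14 per tissue) and for the 8 members with the largest tissue difference, and up to 4 genes per list of other genes. The members, lists and motifs were chosen with earlier results of these data known. Alternatives were quantile normalization, median centring, a pseudocount of 16, no filter or a filter at the 60th percentile, the mean of a gene's probe sets, scan day as a block or each day alone, the muscle marker level as a covariate, all arrays in 1 model, the sample number as a block, fed or fasted arrays only, each array left out, and, chosen after seeing the data, 3 arrays with muscle signal left out (fed BAT 5, fasted WAT 8 and 10).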

Additional observations from a re-analysis of the deposited data

Results flagged for a closer look

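Single arrays stood apart from the other 3 of their group (Dixon's test) in 12 of 198 combinations of gene and group, where chance gives about 1 in 20. Fed BAT array 1 was low for Slc25a1 (4580) and high for Slc25a42 (746). Fed BAT array 4 was high for Slc25a5 (7360) and low for Slc25a23 (114). Fasted WAT array 10, one of those with muscle marker signal, was low for Slc25a14 (31.7) and high for Slc25a39 (1230), and fasted BAT array 10 was low for Slc25a38 (45.8). Fed WAT array 5 was high for Slc25a22 (895), which widens the fall on fasting, and fed WAT array 1 was low for Slc25a46 (611). In liver, Slc25a24 was low on fed array 5 (24.3) and fasted array 6 (26.8), and Slc25a37 was high on fed array 2 (106).

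The fasting change differed between tissues by the test of the difference itself in 17 cases. BAT minus WAT gave 1.44 for Slc25a25, 1.33 for Slc25a29 and -0.80 for Slc25a36 (log2). BAT minus liver gave 1.52 for Slc25a12, 0.83 for Slc25a29, -0.87 for Slc25a17, -1.20 for Slc25a22, -2.12 for Slc25a30, -1.06 for Slc25a36 and -1.75 for Slc25a42. WAT minus liver gave -0.89 for Slc25a17, -1.99 for Slc25a22, -1.93 for Slc25a25, -1.94 for Slc25a30, -1.53 for Slc25a33, -1.29 for Slc25a35 and 1.14 for Slc25a45. Comparisons that share a tissue share its arrays.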

How the results depend on the processing

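No fasting call of a member, and no called difference of fasting effects, turned its direction under any alternative run. All alternatives kept 2 of 11 calls in BAT (Slc25a1, Slc25a29), 5 of 8 in WAT and 6 of 10 in liver. The share of all genes whose calls held under all alternatives was not counted. Genes called in BAT numbered 2782, against 1203 on the first scan day and 322 with the muscle covariate, and members called 11, against 5, 2 and, with median centring, 7 (2 up, 5 down). In WAT 1867 genes were called, against 961 and 262 on the first and second scan days, 1188 with the muscle covariate and 1044 without fasted arrays 8 and 10. In liver 1847 were called, against 2928 with scan day as a block and 976 on the second day. The differences of fasting effects gave, with scan day as a block, 352 genes and 6 members (BAT minus WAT; 163 and 3 before), 2059 and 12 (BAT minus liver; 1184 and 7) and 1319 genes (WAT minus liver; 844). BAT minus WAT gave 1 member (Slc25a29) with the mean of probe sets and with no filter, and BAT minus liver gave 673 genes (643 of the 1184) and 4 members with the muscle covariate. Leaving out each array number in turn gave 2195 to 2574 genes and 7 to 11 members in BAT (7 without array 1 or array 2), 1173 to 2211 genes in WAT (1173 without array 5), 79 to 169 genes and 1 to 3 members for BAT minus WAT, and 760 to 1062 genes for BAT minus liver (760 without number 2). For BAT minus WAT it gave 79 genes without number 2, 89 without 6, 101 without 8, 102 without 4 and 105 without 9.

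Median centring moved the share of genes called higher from 47.6% to 30.4% in WAT, from 52.2% to 41.5% in liver, from 36.4% to 59% for liver minus WAT and from 37% to 53.2% for liver minus BAT. Some tissue differences turned. For BAT minus WAT, Slc25a3 gave -0.11 with quantile normalization, Slc25a25 0.0416 in fasted arrays only, and Slc25a39 and Slc25a46 -0.10 and -0.0208 with the mean of probe sets. For liver minus WAT, median centring gave 0.035 for Slc25a3 and 0.35 for Slc25a5, and fed arrays only gave -0.0333 for Slc25a22, -0.49 for Slc25a30 and -0.71 for Slc25a33. For liver minus BAT, Slc25a12 gave -0.63 in fasted arrays only, Slc25a29 0.093 in fed arrays only and 0.00427 with median centring, and Slc25a39 0.23 with the mean of probe sets and 0.0295 with median centring. The fed-only and fasted-only fits hold fewer arrays and compare the tissues in 1 feeding state alone. The cause of these turns was not tested. Same-numbered arrays of different tissues deviated together at r = -0.00912 to 0.153, over 0.1 in 5 of 24 pairs, and 19 of 24 correlated best with their own number, a hint from the data only. With the sample number as a replicate block, members called were 25, 25 and 27 for the tissue differences (BAT minus WAT, liver minus WAT, liver minus BAT) and 2, 8 and 7 for the differences of fasting effects, with 174 genes for BAT minus WAT, where Slc25a36 lost its call (-0.80, adjusted p = 0.0688). Within a tissue the fed and fasted arrays share no number, so no paired fit was possible there. Signals near the pseudocount limit Slc25a21 in BAT and the members tested nowhere.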

Other observations

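For the 12 members with several probe sets, the dimmer ones give a check on the same arrays. The 2 probe sets of Slc25a36 changed alike, by -0.48 and -0.48 in BAT, 0.32 and 0.31 in WAT, and 0.58 and 0.53 in liver. The 2 of Slc25a30 changed by 1.60 and 1.77 in liver. Slc25a15, with 6 probe sets, was steady in liver by its brightest (0.11), while the 3 dimmer ones with mean log2 signal between 7.48 and 7.96 changed by 0.51, 0.59 and 1.17; these values were noticed after the fact and were not tested. In liver the 2 probe sets of Slc25a44 (-1.13 and -0.30) and of Slc25a10 (-0.97 and -0.28) shared a direction but not a size, and which part of the transcript each reads was not used here.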
